A study of Mus musculus with 4 samples.

Results

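The proteasome genes of mouse regulatory T cells were examined in RNA-seq libraries from primary cells of strain C57BL/6NJ. Members were all genes whose symbol begins with Psm, followed by a letter from a to g and a number, with pseudogene symbols left out. This gave 50 of the 50600 genes in the count tables. By the labels, 4 biological replicates form 1 group, and a CD4 T cell differentiation protocol is linked to them. The labels give the same donor identifier for all 4, call the age unknown and the sex not collected, and name the assay total RNA-seq beside a protocol for poly(A)+ libraries. The library names recorded in the headers include activated and a time of 72 h. Nothing in the labels says that the replicates came from separate animals, so p-values refer only to these libraries. With no second group, genes were compared within each library.

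Total counts on genes ranged from 51460018 to 121477975 per library, and members took 0.677% to 0.706% of them. The defining regulatory T cell genes were present, with Foxp3 at 448 ± 27.8 TPM (counts per base of gene length, scaled to a common total; SD, n = 4) and Ikzf2, a factor of the Ikaros family, lowest of 5 at 16.4 ± 3.61 TPM. Markers of B cells summed to 2.87 to 4.31 TPM per library, those of macrophages and monocytes to 2.26 to 4.55 TPM and those of dendritic cells to 4.20 to 5.22 TPM, with Lyz2 at 0 counts in all libraries. In each of these 3 lists, 1 of 4 genes reached 1 TPM in every library, and the part of such cells in the levels below was not tested. Replicates 1 and 2 held Xist at 173 and 199 TPM and the Y-linked gene Eif2s3y at 0.0874 and 0.133 TPM. Replicates 3 and 4 held Xist at 0.592 and 0.758 TPM and Eif2s3y at 46.7 and 62.7 TPM. Xist is transcribed in female and Eif2s3y in male cells, so the 4 libraries did not all come from 1 animal. Whether libraries of the same sex came from separate animals is not given. The chi-square per degree of freedom between libraries was 16.9 to 60.7 over the 6 pairs, so no library repeated another within sampling noise.

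As background, the proteasome is the protease that cuts proteins tagged with ubiquitin. Its barrel-shaped core stacks rings of alpha and beta subunits, and the catalytic beta subunits Psmb5, Psmb6 and Psmb7 can be replaced by the inducible forms Psmb8, Psmb9 and Psmb10, which gives the immunoproteasome. Interferon-gamma induces these forms in many cells, lymphocytes carry them without it, and peptides they cut are loaded onto MHC class I. A regulatory particle of ATPases and lid subunits unfolds substrates and removes ubiquitin, and the activators encoded by Psme1 to Psme4 can cap the core in its place.

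Nearly all of the machinery was transcribed at high levels. Of the 50 members, 48 reached 1 TPM in all 4 libraries, as did 23.7% of all genes, and 35 averaged at least 100 TPM, as did 4.22% of all genes. The median over all 50 members was 167 TPM, against 28.0 TPM over the 11984 genes at 1 TPM in every library. The members under 1 TPM were the testis form Psma8 and the thymic form Psmb11. One member, Psmc3ip (22.2 ± 2.62 TPM; SD, n = 4), matched by name only, since it encodes a meiotic recombination factor named for binding Psmc3. In bulk RNA, a lower level from fewer cells that transcribe a gene and one from less RNA per cell cannot be told apart.

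**Figure D1:**
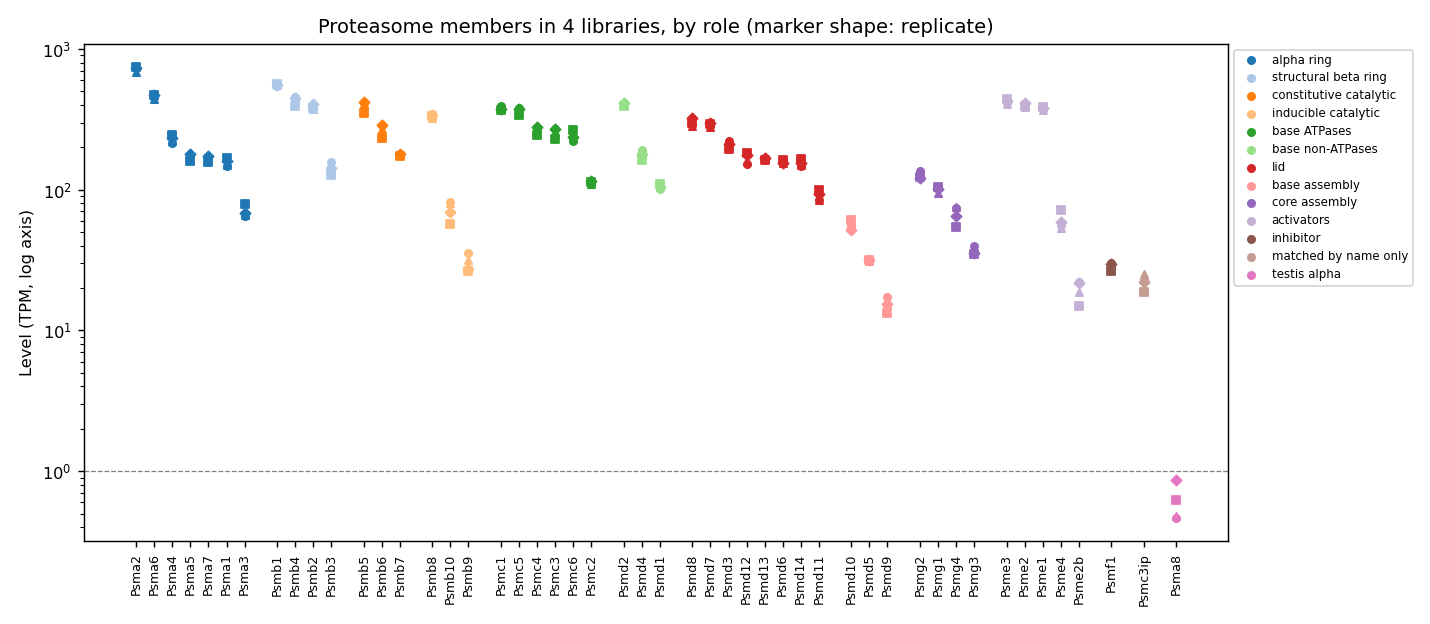
Level in TPM on a log axis of 49 members in each of 4 libraries, grouped and coloured by role, with marker shape for the replicate and a dashed line at 1 TPM; Psmb11 had 0 counts and is not drawn. Constitutive core and regulatory particle genes lie between 65.4 and 749.7 TPM, Psmb10 and Psmb9 lie below the other catalytic subunits, and Psma8 lies below 1 TPM in every library.

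The comparison of inducible with constitutive catalytic subunits asked how far the transcripts of the immunoproteasome had taken the place of the standard form. Psmb8 lay below or above the subunit it replaces depending on the gene length used, while Psmb9 and Psmb10 lay below theirs. Psmb8 (ENSMUSG00000024338.14, mm10 chromosome 17, 34197721 to 34201454) stood at 344, 333, 325 and 340.1 TPM in replicates 1 to 4. Psmb5, the constitutive subunit with chymotrypsin-like activity (ENSMUSG00000022193.6, chromosome 14, 54614120 to 54617995), stood at 411, 353, 403 and 421 TPM. Psmb8 was thus the lower of the pair in each library, by a log2 difference of -0.24 ± 0.11 (SD, n = 4), with replicate 2 closest to equal at -0.08.

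Psmb9 (ENSMUSG00000096727.2, chromosome 17, 34181988 to 34187764) stood at 35.4, 26.4, 31.7 and 27.5 TPM. Its counterpart Psmb6, the caspase-like subunit (ENSMUSG00000018286.6, chromosome 11, 70525367 to 70527858), stood at 289, 233, 270.0 and 288 TPM. The ranges of this pair lay far apart, with a log2 difference of -3.16 ± 0.16 (SD, n = 4), or 8.92-fold more Psmb6. Psmb10 (ENSMUSG00000031897.9, chromosome 8, 105935735 to 105938444) stood at 81.7, 57.1, 80.0 and 69.3 TPM. Psmb7, the trypsin-like subunit that it replaces (ENSMUSG00000026750.6, chromosome 2, 38588036 to 38644087), stood at 178, 174, 177 and 179 TPM. Psmb7 hardly varied and exceeded Psmb10 in each library, by 2.48-fold (log2 difference -1.31 ± 0.22; SD, n = 4).

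Over the 3 places together the inducible subunits lay below the constitutive ones by a mean log2 difference of -1.57 ± 0.10 (SD, n = 4). This mean was -1.63 with principal transcript lengths, -1.01 with coding lengths and -1.03 without any length. When the signs of the 4 library differences were flipped in all 16 ways, 2 of them were at least as extreme for each of the 3 pairs and for their mean (exact, two-sided). This is the fewest that 4 libraries allow, so the test cannot pass 0.05, and adjustment over the 3 pairs by Benjamini-Hochberg leaves it as it is. Inducible transcripts made up 34.4%, 35.4%, 33.9% and 33.0% of those for the 3 catalytic places in replicates 1 to 4. By place the mean share was 45.9% ± 1.85 for Psmb8, 28.8% ± 3.13 for Psmb10 and 10.1% ± 0.957 for Psmb9 (SD, n = 4). The Psmb8 share was 59.5% with principal transcript lengths and 71.8% with coding lengths. The Psmb10 share was 15.2% and 17.0% on those scales and the Psmb9 share 11.5% and 19.2%, so that the order of these 2 places turned with coding lengths, as it did without any length. These are shares of transcripts, and the subunits built into proteasomes were not measured.

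The order of Psmb8 and Psmb5 depended on the gene length used. The deposited merged length of all annotated exons was 2736 bases for Psmb8 and 871 for Psmb5. The principal transcripts of the APPRIS annotation have 1628 and 899 bases. That of Psmb5 exceeds its merged exons because the lengths come from different GENCODE releases, M21 and M13. With principal transcript lengths, an alternative chosen after seeing the data, Psmb8 stood at 401, 390, 379 and 395 TPM and Psmb5 at 276, 238, 271 and 282 TPM. Psmb8 then exceeded Psmb5 in 4 of 4 libraries, by a log2 difference of 0.55 ± 0.11 (SD, n = 4), and by 1.35 ± 0.11 per coding base and 1.41 ± 0.11 without any length. In addition, 109 of the 871 exon bases of Psmb5 (12.5%) lie under the same-strand gene Mir686, and the headers show no setting that counts fragments touching both genes. How many fragments of Psmb5 were lost there was not measured, and a 1.47-fold higher count of Psmb5 would equal Psmb8 per principal transcript length.

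Psmb9 and Psmb10 stayed below their counterparts in all 4 libraries on each of these scales. With principal transcript lengths the log2 difference was -2.95 ± 0.16 for Psmb9 and Psmb6 and -2.49 ± 0.22 for Psmb10 and Psmb7 (SD, n = 4). For Psmb9 and Psmb6 it was -2.07 with coding lengths and -2.19 without any length, or 4.21-fold and 4.57-fold more Psmb6. For Psmb10 and Psmb7 it was -2.29 and -2.31. Psmb9 and Psmb10 stood at 56.8 ± 7.74 and 65.0 ± 10.2 TPM with principal transcript lengths, closer to each other than with merged lengths. Psmb10 was the higher in each library with either. With coding lengths Psmb10 was the lower in each library, by a log2 difference of -0.17 ± 0.11 (SD, n = 4). With principal transcript lengths Psmb8 exceeded Psmb10 by 2.60 ± 0.24 and Psmb9 by 2.79 ± 0.19 on the log2 scale.

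**Figure D2:**
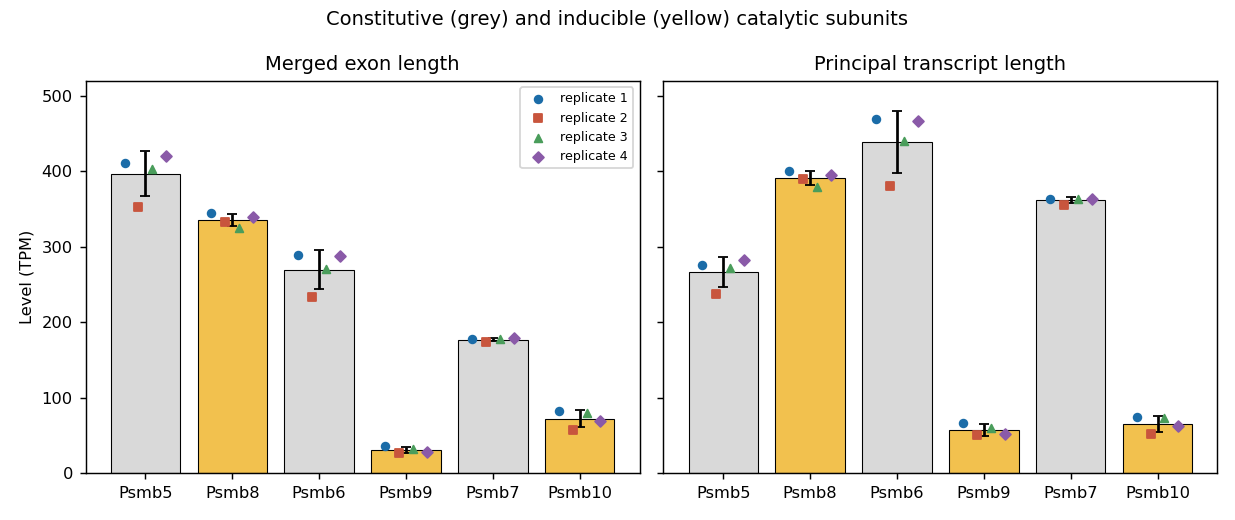
Level in TPM of the 6 catalytic subunits, each constitutive gene (grey) beside the inducible gene that replaces it (yellow), with counts divided by merged exon length (left) or principal transcript length (right); bars are means, error bars are SD over 4 libraries and points are libraries. Psmb8 lies below Psmb5 on the left (336 against 397 TPM) and above it on the right (391 against 267 TPM), while Psmb9 and Psmb10 lie below Psmb6 and Psmb7 in both.

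**Figure D3:**
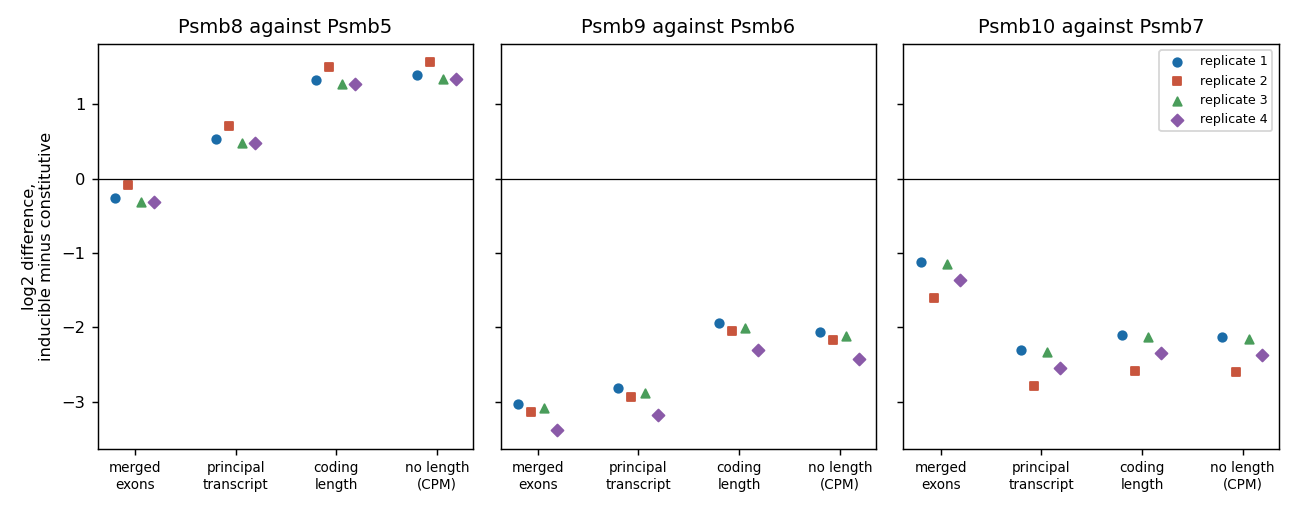
Difference in log2 level, inducible minus constitutive, in each of 4 libraries for the 3 pairs on 4 scales of gene length. The points of Psmb8 against Psmb5 lie below 0 with merged exon length and above 0 on the other 3 scales, and those of both other pairs lie below 0 on all 4.

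Upstream sequences were compared for short motifs of factors known to act on these genes. The motifs were TGACNNNGC, the core of the antioxidant response element bound by Nfe2l1 and Nfe2l2, a form of the interferon-stimulated response element, and TTCNNNGAA, a form of the STAT element, each searched on both strands. No overlap between the motifs was removed. The 250 bases before the start were searched in 45 RefSeq entries (build GRCm38.p6) of 42 members. Psma8, Psmb1, Psmb2, Psmb7, Psmc3, Psmd3, Psmd7 and Psmg2 had no entry. TGACNNNGC was found in 5 of 45 windows (11.1%), those of Psmb5, Psmb6, Psmc6, Psmd12 and Psmd9, against 10.2% of all 32851 windows. The interferon-stimulated response element was found in 3 member windows (6.67% against 2.98%), those of Psmb3, Psmd4 and Psmd9, and TTCNNNGAA in those of Psmb8 and Psmg1 (4.44% against 7.02%). The shares of member windows rest on 5 windows or fewer per motif.

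The windows of 4 catalytic subunits are shown so that constitutive and inducible genes can be read side by side, 5′ to 3′ on the gene's strand, without annotated exons for the first 3 and as a short site for Psmb8, whose match lies within the annotated gene span. Capitals mark a match to TGACNNNGC in Psmb5 and Psmb6 and to TTCNNNGAA in Psmb8. Psmb10 had no match to the 3 motifs. The windows are chr14:54618023-54618245 (minus strand) for Psmb5, chr11:70525107-70525356 (plus) for Psmb6, chr8:105938445-105938642 (minus) for Psmb10 and chr17:34198088-34198116 (plus) for Psmb8.
Psmb5: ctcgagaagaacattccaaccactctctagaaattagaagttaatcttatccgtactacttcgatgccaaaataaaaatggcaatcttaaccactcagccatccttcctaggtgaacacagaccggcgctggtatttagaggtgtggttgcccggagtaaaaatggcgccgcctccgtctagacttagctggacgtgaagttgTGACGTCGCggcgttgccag
Psmb6: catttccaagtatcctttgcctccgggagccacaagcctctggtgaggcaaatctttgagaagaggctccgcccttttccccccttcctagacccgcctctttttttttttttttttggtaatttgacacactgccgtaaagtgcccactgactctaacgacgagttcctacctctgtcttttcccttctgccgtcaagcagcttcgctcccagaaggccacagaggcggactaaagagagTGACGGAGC
Psmb10: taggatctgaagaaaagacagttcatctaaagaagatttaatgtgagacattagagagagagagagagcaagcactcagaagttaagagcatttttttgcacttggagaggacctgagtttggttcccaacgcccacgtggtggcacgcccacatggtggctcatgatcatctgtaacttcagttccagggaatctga
Psmb8: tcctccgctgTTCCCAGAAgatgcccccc

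The genes of the core rings, whose products are built in at equal numbers, differed more between genes than between libraries. All 7 alpha ring genes reached 1 TPM in every library. Psma2 was the highest at 745, 749.7, 691 and 734 TPM and Psma3 the lowest at 65.4, 78.6, 66.3 and 68.7 TPM, a 10.5-fold ratio of means. Each of these genes kept a narrow range over libraries that did not touch that of the other. Of the structural beta genes, Psmb1 was highest at 549, 561, 556 and 556 TPM and Psmb3 lowest at 158, 128, 147 and 142 TPM.

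Differences among ring genes also moved with the length used. The merged exon length is 944 bases for Psma2 and 3894 for Psma3, against principal transcripts of 2911 and 2846 bases. Merged lengths come from GENCODE M13 and principal transcripts from M21. The Psma2 transcript thus includes bases on which no fragments were counted, as does that of Psmb1 (1758 against 1036 merged bases). With principal transcript lengths, Psma2 stood at 164 ± 6.02 TPM, below Psma7 (388 TPM), Psma6 (377 TPM), Psma4 (323 TPM) and Psma1 (266 TPM). Psma3 remained lowest at 66.2 ± 5.90 TPM (SD, n = 4). Among the structural beta genes Psmb1 went from highest to lowest, at 227 TPM, with Psmb4 highest at 498 TPM and Psmb3 at 299 TPM. Over the 14 constitutive ring genes the ratio of the highest to the lowest mean was 10.5-fold with merged and 7.52-fold with principal transcript lengths, and their medians were 249 and 311 TPM.

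The regulatory particle was examined in the same way. Its 17 genes all passed 1 TPM in the 4 libraries, 16 averaged at least 100 TPM, and their median was 209 TPM. Among the ATPases that thread substrates into the core, Psmc1 was highest at 391, 370.2, 375 and 375 TPM and Psmc2 lowest at 111, 114, 109.9 and 116 TPM. Among the other base and lid genes, Psmd2, a scaffold subunit of the base, was highest at 416, 390.2, 403 and 409.9 TPM, and the lid gene Psmd11 lowest at 84.5, 99.4, 84.9 and 93.7 TPM. Psmd14, the lid enzyme that removes ubiquitin chains, stood at 155 ± 8.04 TPM (SD, n = 4), and the ubiquitin receptor Psmd4 at 177 ± 11.9 TPM. With principal transcript lengths other genes took the ends: Psmc3 (285 TPM) and Psmc6 (117 TPM) among the ATPases. Psmd8 (413 TPM) took the place of Psmd2 (383 TPM), with Psmd11 still lowest at 141 TPM. The Psmc6 transcript has 2234 bases against 1564 merged bases, so it too includes bases on which no fragments were counted.

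Among the activators, 3 genes were as abundant as the core. Psme1 stood at 375, 386, 369.9 and 379.9 TPM and Psme2 at 384, 393, 388 and 415 TPM. Their products form 1 ring together and are also induced by interferon-gamma. The log2 difference of Psme1 and Psme2 was -0.06 ± 0.05 (SD, n = 4), with Psme2 higher in each library. With principal transcript lengths it was 0.05 ± 0.05, with Psme1 higher in 3 of 4 libraries, and with coding lengths 0.20 ± 0.05, with Psme1 higher in each. The genes lie 5911 bases apart on chromosome 14, on opposite strands.

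Psme3, which encodes the nuclear activator, stood at 411, 442, 408 and 424 TPM. It exceeded Psme1 with merged exon lengths, by 0.16 ± 0.03 on the log2 scale, and lay below it with principal transcript lengths, by a difference of -0.69 ± 0.03 (SD, n = 4), and with coding lengths it was the higher again, by 0.55 ± 0.03. Psme4, a large activator, was lower, at 55.8, 71.9, 53.3 and 59.4 TPM, with replicate 2 highest. Psme2b, a copy of Psme2, stood at 22.2, 15.0, 18.7 and 21.9 TPM. Counts of such a near copy are uncertain because reads that fit both places may not be assigned. The counts of Psme2, and so its small differences from Psme1, share this limit.

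Genes that restrain or build the proteasome overlapped in level with the lowest of its subunits. Psmf1, an inhibitor of the core, stood at 30.4, 26.3, 29.8 and 29.8 TPM. The core assembly chaperones ranged from Psmg2, at 135, 124, 132 and 121 TPM, down to Psmg3, at 40.0, 34.9, 36.2 and 35.6 TPM. The chaperones of base assembly ranged from Psmd10, at 55.5, 60.6, 56.3 and 52.1 TPM, down to Psmd9, at 17.2, 13.3, 15.5 and 15.5 TPM. The means of these 3 groups of chaperones and inhibitor, 8 genes in all, lay between 15.4 and 128 TPM. With principal transcript lengths Psmg1, at 89.8 TPM, and Psmg2, at 88.8 TPM, were the highest of them, and Psmd9 was still the lowest at 29.7 TPM. Psmg3 then stood at 83.4 TPM, and Psmg4, at 46.4 TPM, was the lowest of the core assembly chaperones. In addition, 9.68% of the exon bases of Psmg3 lie under the same-strand gene Gm26938.

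Both tissue-restricted forms were at the bottom. Psma8, the alpha subunit of testis proteasomes, had 28, 19, 18 and 22 counts in replicates 1 to 4, or 0.463, 0.621, 0.482 and 0.861 TPM. Psmb11, the catalytic subunit of thymic epithelium that lies 7314 bases from Psmb5, had 0 counts in all 4 libraries. A floor of 3 counts, the limit that a count of 0 allows, was worth 0.0247 to 0.0583 CPM in these libraries, and it covers counting error only. Foxn1, the defining factor of thymic epithelium, also had 0 counts. Epcam, the remaining gene of the thymic epithelium list, stood at 2.80, 2.60, 3.20 and 3.87 TPM in replicates 1 to 4.

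Psmb8 and Psmb9 lie in the MHC region beside the peptide transporter genes Tap1 and Tap2. The spans of Psmb9 and Tap1 overlap by 212 bases on opposite strands, and Psmb8 lies 495 bases from Tap1 and 2072 from Tap2. Tap1 stood at 92.0, 68.3, 77.3 and 75.6 TPM and Tap2 at 201, 174, 194 and 201 TPM. Psmb9 lay below Tap1 in each library, by a log2 difference of -1.37 ± 0.07 (SD, n = 4) with merged exon lengths and -0.23 ± 0.07 with coding lengths.

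Other genes of the pathway came from lists, whose levels are given with merged exon lengths only. Of 11 inducers and partners of the immunoproteasome, 11 passed 1 TPM in the 4 libraries and 4 averaged at least 100 TPM, with a list median of 62.1 TPM. B2m, the MHC class I light chain, was highest at 1242, 1428, 1187 and 1278 TPM, and Nlrc5, the transactivator of MHC class I genes, lowest at 6.09, 7.32, 3.86 and 4.82 TPM. The interferon-induced activator Irf1 stood at 12.5 ± 0.775 TPM (SD, n = 4) and Irf8 at 795 ± 39.0 TPM. The 7 partners outside the symbol pattern ranged from Uchl5, a deubiquitinase, at 94.6 ± 12.1 TPM to Ecpas at 58.1 ± 4.95 TPM, with the maturation protein gene Pomp at 88.6 ± 3.74 TPM.

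Of the 4 regulators of proteasome genes, Nfe2l1, which drives their recovery when proteasomes are blocked, was highest at 128 ± 3.87 TPM (SD, n = 4), and Ngly1, which removes glycans from its product, lowest at 11.3 ± 0.653 TPM. The 8 shuttle and segregase genes had a median of 148 TPM and ranged from Vcp, the segregase itself, at 256 ± 10.4 TPM to Ufd1 at 37.6 ± 0.753 TPM. Among 5 ubiquitin genes, the activating enzyme gene Uba1 was highest at 1120 ± 34.8 TPM. Every gene of these 3 lists reached 1 TPM in all 4 libraries.

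The spread of members between libraries was read against that of all genes. All but Psmb11 passed the filter on low counts, and 0 of these 49 were called variable, against 0.00734% of the 13625 genes tested (edgeR quasi-likelihood dispersion, adjusted p under 0.05). Since the test called 1 gene in all, this count shows nothing particular to the members. At an unadjusted p under 0.05 the count was 1 member, Psmb10 (unadjusted p = 0.0322, adjusted p = 0.965 by edgeR), against 4.7% of tested genes. DESeq2 dispersion outliers and limma-trend also marked 0 members, against 0.316% and 0.00734% of genes. Without a filter on low counts edgeR called 0 members, against 0.424% of genes. Without replicate 1, 2, 3 or 4 in turn it called 0 members, against 0.0147%, 0.129%, 0.00735% and 0.00717% of genes. The median ratio of the highest to the lowest library, in TMM-scaled CPM, was 1.14 over members and 1.23 over all tested genes. These medians were not matched for level, and members had a median of 167 TPM against 28.0 TPM over genes at 1 TPM in all 4 libraries. The part of level in the lower ratio of members was not tested.

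By that ratio Psma8 (1.85), Psme2b (1.53) and Psmb10 (1.48) varied most among tested members, and Psme1 (1.01), the base assembly chaperone Psmd5 (1.03) and the alpha subunit Psma6 (1.04) least. Psmb10 had 4981, 1758, 3006 and 1781 counts in replicates 1 to 4, where total counts on genes were 121477975, 62472060, 73690296 and 51460018. The part of depth in its spread was not tested. On the log2 scale Psmb10 lay 0.21, -0.36, 0.20 and -0.04 from its own mean in replicates 1 to 4. Psmb9 lay 0.25, -0.23, 0.11 and -0.13 from its mean, and Psmb8 0.05, -0.05, -0.01 and 0.02. Replicates 1 and 3 lay above and replicates 2 and 4 below the mean for both Psmb9 and Psmb10, in replicate 4 only slightly for Psmb10. These signs were not particular to the inducible subunits, since 9 of the 49 tested members had them, Psmb9 and Psmb10 included.

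The deviations of members moved with the GC content of their transcripts. In replicate 2, Pearson's r between GC content and deviation was -0.69 over 49 members (Spearman's rho -0.73), and -0.38 over 11978 tested genes (rho -0.48). In replicate 1 it was 0.65 over members and 0.25 over tested genes, in replicate 3 it was 0.47 and 0.14, and in replicate 4 it was -0.04 and 0.10. These points share libraries and are genes, not independent replicates, and since deviations sum to 0 over the 4 libraries the values of the replicates are not independent. Psmb5, Psmb6, Psmb8, Psmb9 and Psmb10 have GC contents of 55.3% to 56.6% and Psmb7 of 48.7%, so that GC content differed by 7.81 percentage points between Psmb10 and Psmb7. Each library's trend over GC content was then removed, an alternative added after seeing the data. The ratio of highest to lowest library went from 1.48 to 1.33 for Psmb10 and from 1.39 to 1.26 for Psmb9. For Psmb8 it hardly moved, from 1.07 to 1.08. Removing the trend did not narrow all members. The ratio rose for Psme1, for Psmd5 (from 1.03 to 1.12) and for Psma6 (from 1.04 to 1.08), which had varied least. Psma3 and Psmd3 then varied least, at 1.03 each.

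**Figure D4:**
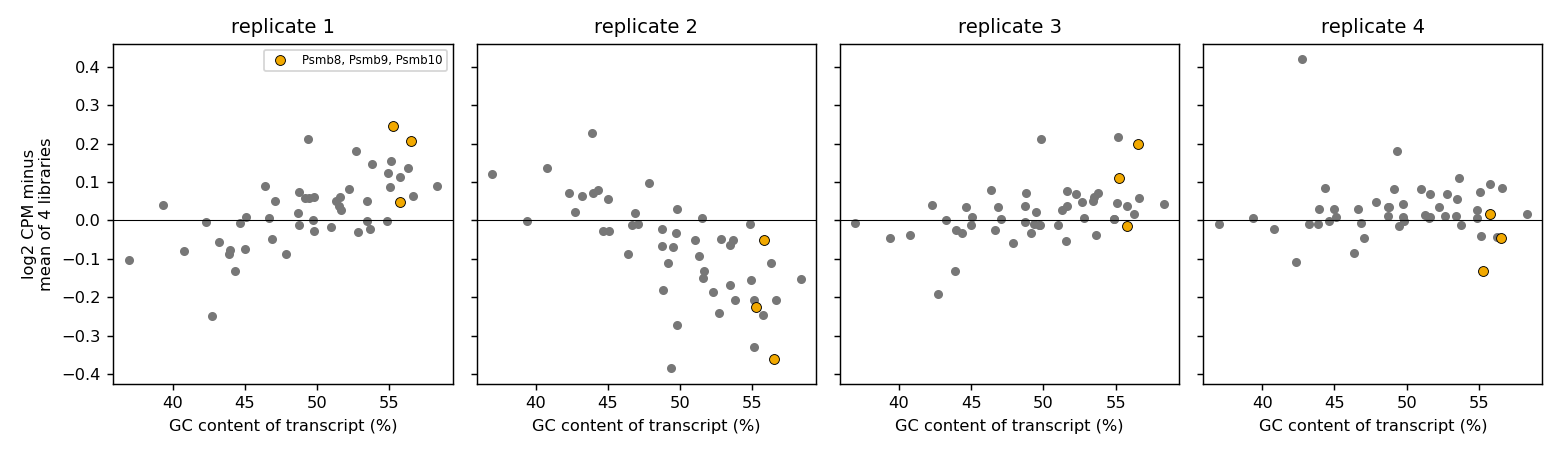
Deviation of each of 49 members from its own mean over 4 libraries (log2 of TMM-scaled CPM) against the GC content of its principal transcript, by replicate, with the inducible catalytic subunits in yellow. The points fall with GC content in replicate 2 (r = -0.69), rise in replicate 1 (r = 0.65) and replicate 3 (r = 0.47) and show no slope in replicate 4 (r = -0.04).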

How the data were processed

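The deposited files hold raw gene counts from featureCounts 1.4.6-p4 (paired fragments, strand setting 2, mm10, GENCODE M13), per the file headers. For the aligner, a version is not given in the sources used here. Both the members and the lists were chosen with earlier results of these data known.

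Counts were divided by the deposited merged exon length and scaled to TPM. Symbols and principal transcript lengths came from GENCODE M21, upstream sequences from RefSeq. Where a principal transcript is longer than the M13 merged exons, counts were divided by some bases on which none were counted. Pairs were compared as log2(TPM + 0.1) within a library, and signs were flipped exactly over the 4 libraries (two-sided). The pseudocount slightly understates differences of low genes. Spread was tested over genes passing filterByExpr with the quasi-likelihood dispersion of edgeR 4.0.16 over its trended prior (TMM, robust, Benjamini-Hochberg), with DESeq2 1.42.0 and limma 3.58.1 as alternatives, and was tested on simulated data, where large shifts of 1 library were recovered and small ones were not.

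Named were the catalytic and tissue-restricted subunits, the activators, the highest and lowest member of each role group, the 3 most and 3 least variable members, and the ends of each list; some list members are not reported here. Psmd4, Psmd14, Psmc3ip, Pomp, Irf1, Irf8, Tap1 and Tap2 were named after their values were seen. T cell markers ranged from Cd3e, at 185 TPM, to Trac, at 1182 TPM. Those of CD8 T cells were Cd8a at 0.243 and Cd8b1 at 11.5 TPM, and of thymic epithelium Epcam averaged 3.12 TPM.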

Additional observations from a re-analysis of the deposited data

Results flagged for a closer look

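In 2 of 49 members with counts, 1 library lay far from the other 3, and chance alone marks about 1 in 20 groups of 4. Psmf1, the inhibitor of the core, stood at 26.3 TPM in replicate 2 against 29.8 to 30.4 TPM in the others, a gap of 0.858 of its whole range. Psmc4, an ATPase of the base, stood at 244 TPM in replicate 2 against 273 to 278 TPM, a gap of 0.840 of its range. In both genes the low library was replicate 2.

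Pseudogenes of the constitutive catalytic subunits were left out of the members and held few counts. Psmb6-ps2 had at most 6 counts in a library and Psmb7-ps2 at most 9, above the limit of 3 that a count of 0 allows.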

How the results depend on the processing

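Psmb8 against Psmb5 reversed from a log2 difference of -0.24 to 0.55 with principal transcript lengths, 1.35 with coding lengths and 1.41 in CPM, which shows the length used as the source of the change. The other 2 pairs and the mean kept their direction under every alternative run, and leaving out 1 library at a time moved the Psmb8 value only between -0.29 and -0.22. The inducible share, 34.2% with merged lengths, was 32.5% with principal lengths, 43.3% with coding lengths, 44.2% in CPM and 28.2% as the mean over the 3 places. The median member level, 167 TPM, was 208 TPM with principal lengths and 173 TPM without Psmc3ip, Psma8, Psmb11 and Psme2b. The count of members called variable was 0 under all 12 alternatives run. The edgeR test missed small shifts in simulated data, so these counts of 0 do not show that members were steady. The number of all genes called was 98 without a filter on low counts and 18 without replicate 2, against 1. With 4 libraries no pair could pass 0.05 in the exact test. No paired analysis was possible because the study has 1 group, so replicate numbers pair no samples across groups; the comparison of genes within a library is a separate matter.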
